A study of Mus musculus with 2 samples.

Results

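The regions described here are DNase-seq peaks at the promoters of long intergenic non-coding RNAs (lincRNAs) that lie away from protein-coding promoters, in the urinary bladder of adult female B6CASTF1/J mice aged 18 to 20 months. A region was kept when its peak midpoint lay within 1 kb of a transcription start site (TSS) of a GENCODE M21 lincRNA gene and more than 5 kb from every protein-coding TSS on chromosomes 1 to 19, and when such a peak overlapped by at least 1 bp in both libraries. This left 918 regions of 68801 peaks paired 1 to 1 between the libraries. The study holds 2 libraries of 1 group, biological replicates 1 and 2, both untreated and of the same strain, sex, age and tissue. B6CASTF1/J is a first-generation cross of C57BL/6J and CAST/EiJ, and the deposited peaks do not separate the parental alleles. Both tissue samples carry the same donor record and nothing in the labels says whether they came from separate animals, so the spread between the libraries may be technical. There is no second condition, and all comparisons are between classes of regions within these libraries or between the libraries themselves.

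DNase I cuts DNA that is free of nucleosomes, so dense cuts mark promoters, enhancers and insulators, and short protected stretches inside them, called footprints, mark DNA covered by a bound protein. LincRNAs are transcribed by RNA polymerase II from promoters of their own, outside protein-coding genes, and are spliced and polyadenylated like messenger RNAs, but do not code for protein. Some act in nuclear bodies, some host microRNAs or small nucleolar RNAs in their introns, and for many no role is known. Their promoters are known to hold fewer CpG islands than those of protein-coding genes. The bladder wall is lined by urothelium, a stratified epithelium, on connective tissue and a thick coat of smooth muscle.

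The sequences of 6 genes are given as examples, from CpG-rich start sites and upstream elements to a CpG-poor region just downstream of a start site. All come from the strongest quartile of regions by signal and are not typical of the class, of which 77.5% was CpG-poor. Each is the union of the peaks of both libraries, read from GRCm38.p6 (mm10) on the strand of the lincRNA, and capitals mark matches to a searched motif that a footprint overlapped by at least 4 bp in both libraries. The searched letters behind the capitals were GGGCGG (GC box, bound by SP and KLF factors), GGGTGNGG (CACCC box of KLF factors), AACCGGTT (grainyhead-like, GRHL), TGACGTCA (CRE, bound by CREB and ATF factors), CCAAT (NF-Y), GCGCATGCG (NRF1), TGCCAA (half-site of NFI) and the CTCF consensus, on both strands, and matches of different motifs may overlap. Malat1, which makes an abundant RNA of nuclear speckles, is shown with 2 regions because the one at its TSS (chr19:5802601-5802780, minus strand, holding the TSS and no capitals) was weaker than the one upstream of it (chr19:5803561-5803780, minus strand), where capitals are GC boxes and GRHL. Tmem250-ps (chr2:26140461-26140700, minus strand) is shown for its CRE, which overlaps a CCAAT by 1 base and lies at -19 bp from the TSS. 4632415L05Rik (chr3:19894641-19894860, plus strand) is shown for a CTCF match that overlaps a GC box. Gm36445 (chr13:65240761-65240980, plus strand) is shown for NRF1 and an NFI half-site. 4833412C05Rik (chr7:67803561-67803840, minus strand), CpG-poor, is shown as the stronger of the regions beside Synm, a smooth muscle intermediate filament gene. Trp53cor1 (chr17:29078941-29079140, minus strand) is shown as a strong region that is CpG-poor and has no capitals. All of these regions were picked for features of these data given here, and were not drawn to stand for the class. The gene 4632415L05Rik was also named only after its values were seen.
Malat1 start site: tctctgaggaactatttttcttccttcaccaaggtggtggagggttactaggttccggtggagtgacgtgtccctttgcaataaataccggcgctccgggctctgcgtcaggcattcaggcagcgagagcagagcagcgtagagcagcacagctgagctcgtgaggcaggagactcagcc
Malat1 upstream: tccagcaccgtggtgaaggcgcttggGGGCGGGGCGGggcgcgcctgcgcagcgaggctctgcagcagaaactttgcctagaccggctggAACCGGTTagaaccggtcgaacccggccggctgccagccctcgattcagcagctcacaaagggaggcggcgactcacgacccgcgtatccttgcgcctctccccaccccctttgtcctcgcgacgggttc
Tmem250-ps: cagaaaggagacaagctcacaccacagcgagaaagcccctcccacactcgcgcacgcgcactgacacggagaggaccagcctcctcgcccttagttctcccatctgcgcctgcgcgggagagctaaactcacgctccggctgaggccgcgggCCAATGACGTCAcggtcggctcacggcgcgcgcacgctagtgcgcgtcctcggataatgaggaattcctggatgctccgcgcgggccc
4632415L05Rik: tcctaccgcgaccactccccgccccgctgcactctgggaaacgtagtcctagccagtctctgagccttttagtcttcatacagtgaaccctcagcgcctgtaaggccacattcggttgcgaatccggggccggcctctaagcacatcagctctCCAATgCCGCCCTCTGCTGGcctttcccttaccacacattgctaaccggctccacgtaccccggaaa
Gm36445: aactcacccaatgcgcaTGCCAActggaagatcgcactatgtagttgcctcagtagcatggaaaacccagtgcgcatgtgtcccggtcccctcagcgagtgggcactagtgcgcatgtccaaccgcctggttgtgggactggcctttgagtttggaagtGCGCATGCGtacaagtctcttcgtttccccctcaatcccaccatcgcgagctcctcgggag
4833412C05Rik: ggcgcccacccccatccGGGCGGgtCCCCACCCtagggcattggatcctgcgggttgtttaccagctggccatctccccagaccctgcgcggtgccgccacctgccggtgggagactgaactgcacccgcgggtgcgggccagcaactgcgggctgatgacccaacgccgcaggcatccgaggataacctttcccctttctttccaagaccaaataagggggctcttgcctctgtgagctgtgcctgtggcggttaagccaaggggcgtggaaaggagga
Trp53cor1: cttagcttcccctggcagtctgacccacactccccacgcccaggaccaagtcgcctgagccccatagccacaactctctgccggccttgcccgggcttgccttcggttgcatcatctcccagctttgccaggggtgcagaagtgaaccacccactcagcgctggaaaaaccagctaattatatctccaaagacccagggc

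Before the libraries were compared, 1082 peaks of replicate 1 and 1352 peaks of replicate 2 met the promoter rule, which is 1.31% and 1.24% of the 82472 and 109240 peaks in the longer deposited lists. Of these, 932 in replicate 1 and 936 in replicate 2 overlapped a peak in the other library that also met the rule. Pairing by largest mutual overlap left 918 regions, with 14 and 18 peaks shared but outside these pairs. A further 6 and 7 overlapped only a peak whose own midpoint failed the rule, and 144 and 409 overlapped no peak of the other library. The share that overlapped any peak was 86.7% in replicate 1 and 69.7% in replicate 2, against 84.8% and 64.2% of all peaks. Promoter peaks found in a single library were weak, with a median signal of 0.478 in replicate 1 and 0.451 in replicate 2. At the TSS limit the peaks on both sides were similar in signal: 44 regions in the last 100 bp inside the TSS limit had medians of 0.891 and 1.03, and 41 shared peaks in the first 100 bp outside it had 0.938 and 1.31. At the limit of 5 kb from coding start sites, 4 regions up to 500 bp inside had medians of 3.82 and 4.45, and 8 shared peaks up to 500 bp outside had 1.25 and 1.70.

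The tissue label was checked at protein-coding promoters of marker genes. A promoter peak shared by both libraries was found at 22 of 23 urothelial genes, 14 of 15 fibroblast genes, 8 of 14 smooth muscle genes, 5 of 9 endothelial genes and 3 of 8 immune genes, and at 1 of 3 hepatocyte and 1 of 3 central neuron genes. Of all protein-coding genes 65.1% had one, so the shares of the smooth muscle, endothelial and immune lists were below this background, as were those of the hepatocyte and central neuron lists. The lists were chosen with earlier results of these data known. The libraries are of bulk tissue, in which few cells with an open promoter and many cells with a rarely open one cannot be told apart.

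LincRNA promoter regions were less accessible than protein-coding promoters and somewhat more than distal peaks. Signal is the deposited peak height, a count scaled by 1 factor per library, and its median over the 918 regions was 0.955 in replicate 1 and 1.16 in replicate 2. The 22209 shared peaks within 1 kb of a protein-coding TSS had medians of 1.72 and 1.90. The 31273 distal peaks, more than 5 kb from every annotated TSS, had 0.767 and 0.919. The lincRNA median was therefore 0.583 ± 0.0404 of that at protein-coding promoters and 1.25 ± 0.0141 of that of distal peaks (SD, n = 2 libraries), with the same order in both libraries. With 2 libraries a paired exact permutation test, two-sided, cannot give a p below 0.5, so the differences between classes carry no test. The order holds for medians only: 241 lincRNA regions (26.3%) lay above the protein-coding median.

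The difference in level went along with CpG content. A region was called CpG-rich when its observed over expected CpG number was 0.6 or more. This was so for 207 lincRNA regions (22.5%), against 66.6% of protein-coding promoter peaks and 5.23% of distal peaks, and the median ratio was 0.369, 0.736 and 0.241 in these classes. CpG-rich lincRNA regions had median signals of 1.87 in replicate 1 and 2.11 in replicate 2, and CpG-poor ones 0.870 and 1.03. Among CpG-rich regions alone the lincRNA median was 0.747 ± 0.0306 of the protein-coding one and 1.77 ± 0.189 of the distal one. Among CpG-poor regions it was 0.879 ± 0.0303 of the protein-coding one and 1.14 ± 0.00718 of the distal one (SD, n = 2 in each case). The gap to protein-coding promoters was thus smaller within each CpG class than over all regions. The split did not level CpG content between lincRNA regions and protein-coding promoter peaks. Their median CpG ratios were 0.756 and 0.843 among CpG-rich regions, and 0.300 and 0.382 among CpG-poor ones.

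**Figure D1:**
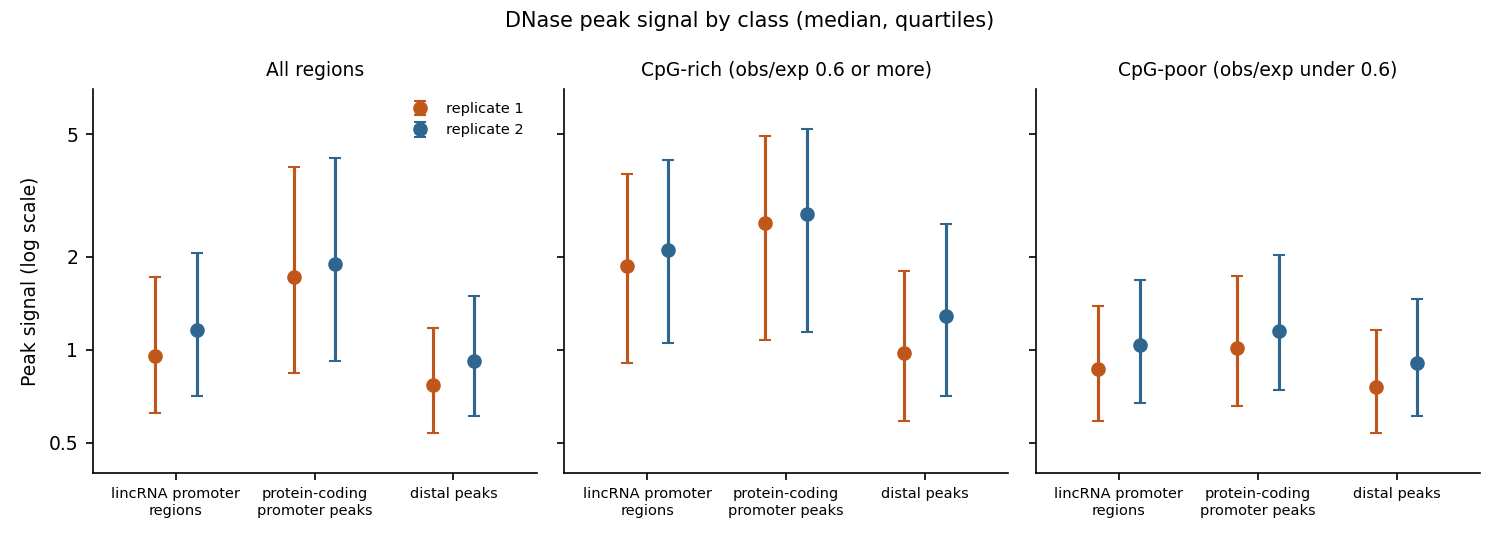
Median peak signal (points, log scale) with the lower and upper quartile (bars) in replicates 1 and 2, for lincRNA promoter regions, protein-coding promoter peaks and distal peaks, over all regions and split by CpG content. LincRNA promoters lie between the other classes in every panel, and the CpG-rich ones, at 1.87 and 2.11, lie above the CpG-poor ones, at 0.870 and 1.03.

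Signal was spread unevenly over the members. The mean of both libraries ran from 0.225 to 49.95, with quartiles at 0.698, 1.06 and 1.88. Only 40 regions reached 5, of which 36 were CpG-rich and 33 had their midpoint upstream of the TSS, and 5 reached 10. The strongest quartile of the regions was CpG-rich in 46.5% of cases and held 3.59 footprints per region in replicate 1 and 3.78 in replicate 2. The weakest quartile was CpG-rich in 10.9% and held 0.970 and 1.29 footprints. The shorter deposited lists, which hold fewer peaks, contained 71.7% of the regions in replicate 1 and 82.0% in replicate 2. A peak of the shorter list was present in both libraries at 601 regions, in a single library at 209 and in neither at 108. The union of both peaks had a median width of 238 bp and ran from 95 to 900 bp.

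Peak midpoints clustered just upstream of lincRNA start sites. Of the 918 regions 543 (59.2%) had their midpoint upstream of the nearest lincRNA TSS and 375 downstream, with a median position of -41 bp. The midpoint was within 100 bp of the TSS in 285 regions and within 250 bp in 468 (51.0%), while 262 lay more than 500 bp away. Regions within 250 bp had a median mean signal of 1.14 and those beyond 500 bp had 1.02. By midpoint, 432 lay outside lincRNA gene bodies, 270 in lincRNA introns and 216 in lincRNA exons. Relative to protein-coding genes 881 lay between genes and 34 in introns, 2 in non-coding exons and 1 in a coding exon. In addition, 63 regions (6.86%) had a start site of another gene type no more than 1 kb away, most often a processed transcript (23 regions), so these peaks cannot be given to the lincRNA alone. The number of regions per chromosome ran from 29 on chromosome 3 to 75 on chromosome 13.

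The deposited stretches of significant cut rate gave the same picture base by base. They were averaged over 782 lincRNA start sites with a region and, for comparison, over 19204 protein-coding start sites with a shared promoter peak. Coverage of lincRNA sites was highest at -46 bp in replicate 1 and at -78 bp in replicate 2, where 52.6% and 56.1% of sites lay inside a stretch. At protein-coding sites the maximum was 86.0% and 87.2%. The 250 bp upstream of the lincRNA TSS were covered 1.29 and 1.21 times as often as the 250 bp downstream, against 1.05 and 1.06 times at protein-coding sites. Footprints leaned further upstream: 840 and 965 footprint centres fell in the upstream 250 bp, and 378 and 461 in the downstream 250 bp. These are ratios of 2.22 and 2.09 at lincRNA sites, against 1.98 and 1.99 at protein-coding sites. Since members were chosen by distance from a TSS, the height at the centre is partly fixed by the rule, but its side is not.

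**Figure D2:**
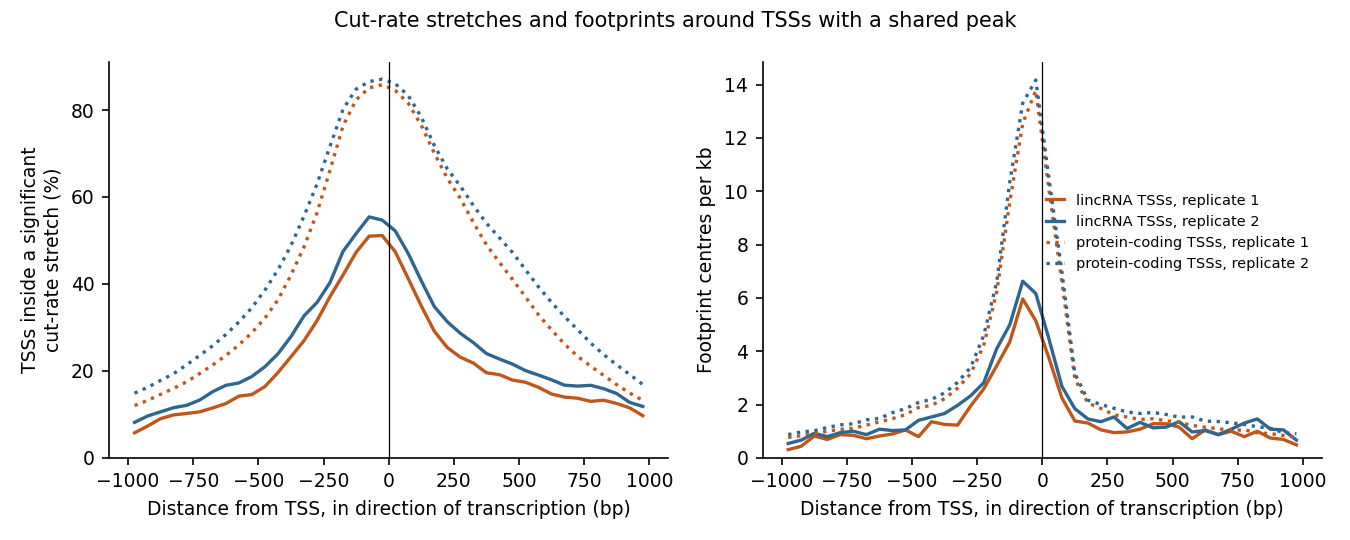
Share of start sites inside a stretch of significant cut rate (left, in percent) and footprint centres per kb and start site (right) against the distance from the TSS in the direction of transcription, for lincRNA (solid) and protein-coding (dotted) start sites with a shared peak, in replicates 1 and 2. Curves are means over short bins, so their maxima lie slightly below the base-by-base values. The lincRNA curves reach 51.1% and 55.4% upstream of the TSS, below the protein-coding maxima of 85.8% and 87.1%. In both classes footprints are denser upstream than downstream.

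Most regions held at least 1 footprint, and in this lincRNA promoters were close to the other classes. A footprint lay in 85.7% of regions in replicate 1 and 88.2% in replicate 2, against 84.0% and 86.0% of protein-coding promoter peaks and 81.9% and 87.3% of distal peaks. In number there were 9.97 and 11.2 footprints per kb of lincRNA peak, 12.0 and 12.3 at protein-coding promoters and 9.43 and 10.2 in distal peaks. Both libraries had a footprint in 717 lincRNA regions and neither had one in 38. Of the single footprints, 53.5% of the 1858 in replicate 1 and 45.1% of the 2116 in replicate 2 overlapped a footprint of the other library. At protein-coding promoters these shares were 62.5% and 57.1%, and in distal peaks 50.7% and 42.1%.

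For most searched motifs lincRNA promoters lay between protein-coding promoters and distal peaks. All shares in this paragraph refer to a window of 300 bp around the peak midpoint, the same length in each class, with both strands searched. The GC box (GGGCGG) was found in 26.0% of lincRNA promoter windows, against 58.6% at protein-coding promoters and 11.3% in distal peaks. Within CpG-rich regions these shares were 58.0%, 72.6% and 32.5%. The ETS motif (CCGGAAG), common at promoters of housekeeping genes, was found in 6.97%, 12.8% and 2.21%, but in CpG-poor windows alone in 5.63%, 5.27% and 2.04%. The order was turned round for the AP-1 motif (TGANTCA), the site of FOS and JUN factors, with 19.4% of lincRNA windows, 6.93% of protein-coding and 24.5% of distal ones. It was likewise for the NFI half-site (TGCCAA), with 18.8%, 12.1% and 24.2%, and for the CTCF consensus, with 5.45%, 1.81% and 8.38%. The letters AGATAA of GATA factors were found in 10.5%, 5.15% and 15.7%. TEAD (GGAATG) was found in 17.2%, 11.7% and 19.4%, and RUNX (TGTGGTT) in 6.32%, 3.45% and 7.21%. The TATA box letters (TATAAA) were found in 7.84%, 4.60% and 12.3%. CCAAT (NF-Y) was found at similar shares of 29.3%, 31.4% and 30.6%. The CACCC box (GGGTGNGG) was found in 17.9%, 20.6% and 14.2%, the E-box (CACGTG) in 7.95%, 9.03% and 5.81%, which in CpG-rich windows alone were 13.5%, 10.1% and 10.3%, and FOX (TGTTTAC) in 5.99%, 2.84% and 6.86%. In CpG-poor windows alone, lincRNA and protein-coding shares lay closer than over all windows for AP-1 (21.5% and 13.7%) and NFI (21.1% and 18.7%). The same held for CTCF (5.63% and 3.55%), GATA (10.8% and 9.24%), TEAD (18.4% and 16.2%), RUNX (7.03% and 5.54%) and TATA (8.02% and 6.82%). In CpG-rich windows alone the shares did not draw closer for CTCF (4.83% and 0.940%), GATA (9.18% and 3.10%) or TATA (7.25% and 3.48%). A match is a string of letters and does not show that a factor was bound.

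**Figure D3:**
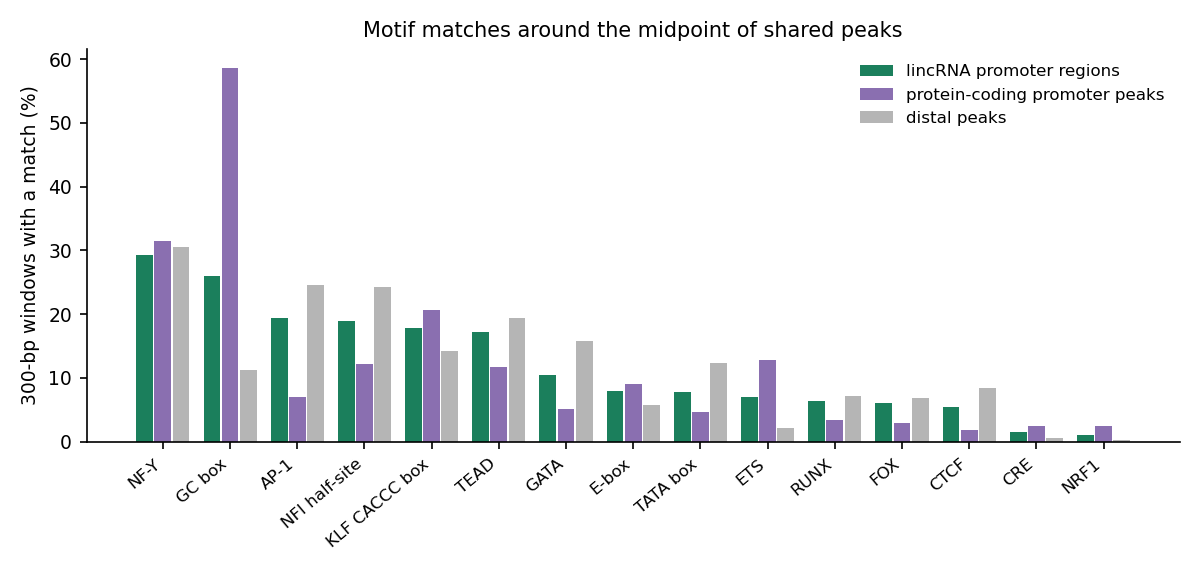
Percent of 300-bp windows around the peak midpoint that hold a motif match on either strand, for lincRNA promoter regions, protein-coding promoter peaks and distal peaks; motifs at under 2% in all classes are left out. For the GC box the lincRNA bar, 26.0%, is below the protein-coding and above the distal one, and for AP-1, 19.4%, this is the other way round.

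Rare motifs were few in the members. TGACGTCA (CRE) was found in 14 lincRNA windows (1.53%), against 2.44% of protein-coding and 0.512% of distal windows. GCGCATGCG (NRF1) was found in 10 (1.09%), against 2.37% and 0.240%. CAAGATGGC (YY1) was found in 0.654%, 1.72% and 0.620%, AACCGGTT (GRHL) in 0.436%, 0.257% and 0.358%, and AACAATGG (SOX) in 0.980%, 0.455% and 1.00%. TCTCGCGAG (ZBTB33) was found in 0 of the 918 windows, against 0.887% and 0.0128%. The CArG box of SRF was found in 1.74%, 1.13% and 1.66%, and the p53 pair in 0.109%, 0.00450% and 0.0927%.

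Footprint cover of motif matches was compared between the classes, motif by motif. Here matches are those inside the peaks, and a match was counted as covered when a footprint overlapped it by at least 4 bp. Of the 51 CTCF matches in lincRNA regions 82.4% were covered in replicate 1 and 94.1% in replicate 2. At protein-coding promoters these shares were 80.7% and 91.5%, and in distal peaks 77.7% and 96.0%. All 10 NRF1 matches in lincRNA regions were covered in both libraries, against 90.8% and 92.4% at protein-coding promoters and 76.5% and 78.3% in distal peaks. Of the 14 CRE matches 11 and 9 were covered (78.6% and 64.3%). For the CRE these shares were 79.7% and 83.3% at protein-coding promoters and 46.8% and 54.5% in distal peaks. GC boxes were covered in 28.3% and 33.5% of 421 matches, against 35.9% and 39.9% at protein-coding promoters and 22.8% and 27.2% in distal peaks. AP-1 matches were covered in 6.40% and 8.87% of 203 cases, against 8.90% and 9.64% at protein-coding promoters and 10.8% and 12.8% in distal peaks. Lengths of the motifs differ, so these shares compare classes for 1 motif and not motifs with each other. Signal differed in both directions between regions with and without a match. Regions with a CTCF match in the peak had a median mean signal of 1.73 and those without one 1.03, and for the GC box these values were 1.63 and 0.969. They were 1.81 and 1.05 for the CRE, with only 14 regions holding it. For the NFI half-site they were 0.870 and 1.09, for GATA 0.938 and 1.07, for TEAD 0.964 and 1.08 and for AP-1 0.999 and 1.08.

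Few lincRNA genes had a shared peak near a start site in bladder. Of 4536 eligible lincRNA genes, those with a TSS more than 5 kb from every protein-coding TSS, 750 (16.5%) had a region within 1 kb of such a TSS. Not every region lies at the promoter itself, since 262 of the 918 had their midpoint more than 500 bp from the TSS. How often a peak falls as near to positions without a promoter was not tested. Of 20807 protein-coding genes, 13552 (65.1%) had a shared promoter peak. When TSSs were split by their CpG ratio in 300 bp, the shares among CpG-poor ones were 14.2% of lincRNA genes against 24.7% of protein-coding genes. Among CpG-rich ones they were 157 of 353 lincRNA genes (44.5%) against 91.5% of protein-coding genes. In percentage points the shares thus drew clearly closer only among CpG-poor ones, while as a ratio they drew closer in both classes. Genes with a published name had a region most often, 30 of 77 (39.0%). RIKEN clones followed with 184 of 901 (20.4%), clone accessions with 76 of 410 (18.5%) and Gm gene models with 460 of 3148 (14.6%). Genes with more annotated start sites offer more places for a peak, and the share was 14.1% with 1 TSS, 23.6% with 2 to 3 and 37.0% with 4 or more. Counted by nearest lincRNA, the regions belonged to 735 genes, of which 588 had 1 region, 122 had 2, 18 had 3 and 6 had 4, and Lncpint had 8.

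The long non-coding RNAs of the 6 lists used here, by role, numbered 81 symbols, of which 25 were eligible lincRNA genes and 16 had a region, against 750 of all 4536 eligible genes (16.5%) and 30 of the 77 with a published name (39.0%). The remaining symbols were another gene type in GENCODE M21 (37), had no TSS over 5 kb from a coding TSS (5) or were not found by symbol on chromosomes 1 to 19 (14). The 34 regions of the 16 genes had a median signal of 1.52 in replicate 1 and 1.39 in replicate 2, above the 0.955 and 1.16 of all 918, and 17 of them were CpG-rich. For 13 of the 16 genes the strongest region lay above the median of all regions in both libraries. A gene with more regions has more chances of a strong one, and the same count over all genes with a region was not taken. The lists hold well-studied genes and were not drawn to stand for lincRNAs in general. They were also chosen with earlier results of these data known, so their higher share and signal cannot show that such genes are more often accessible.

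Both lincRNAs of nuclear bodies had strong regions. Malat1, which localizes to nuclear speckles, had a signal of 10.6 in replicate 1 and 9.53 in replicate 2 at its upstream region, whose midpoint was at -998 bp from the TSS. The region at the Malat1 TSS, with its midpoint at -18 bp, had 5.77 and 7.97, and lay 749 bp from the TSS of Gm37376, a gene of another type. The upstream region was thus the stronger in both libraries, by a wider margin in replicate 1, and it held 3 and 2 footprints against 5 and 4 at the TSS. Its midpoint is only just inside the 1 kb rule. Neat1, the scaffold of paraspeckles, had 5.50 and 5.88 at a CpG-rich region at -302 bp, which held 12 and 5 footprints. The midpoint of this region was nearer, at 157 bp, to the TSS of Frmd8os, an antisense gene, so it cannot be given to Neat1 alone. A second Neat1 region 771 bp downstream of a TSS had 1.42 and 0.928, and lay 51 bp from the TSS of Gm27533, a gene of another type.

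Hosts of small RNAs ranged widely. All 3 eligible snoRNA host genes, whose introns carry small nucleolar RNAs, had a region near their TSS: Snhg12 with 4.02 in replicate 1 and 4.07 in replicate 2, Snhg6 with 3.46 and 2.92, and Snhg20 with 2.62 and 3.42. Snhg12 had 2 more regions, of 0.503 and 0.530 and of 0.716 and 1.07, at internal start sites. Start sites of small RNA genes were also near. The strongest Snhg12 region lay 834 bp from that of Snora16a, and the Snhg20 region 483 bp from that of Gm26083. The 2 further Snhg12 regions lay 90 bp from that of Snora16a and 129 bp from that of Snora44. In the list of microRNA hosts 6 of 8 eligible genes, Mirt1 among them, had a region. Mir670hg, host of miR-670, had 4 regions, the strongest at -45 bp with 2.98 and 4.06 and the others at 0.546 to 0.786. Mir17hg, host of the miR-17 to miR-92 cluster, had 2.49 and 2.45. Mirt1, which stands in this list but is named for myocardial infarction and is not known as a microRNA host, had 2.39 and 1.74. Carmn, which hosts the smooth muscle microRNAs miR-143 and miR-145, had 1.63 and 1.28 at a CpG-poor region at -120 bp from its TSS. Mir155hg, host of the immune microRNA miR-155, had 2 weak regions, with 0.682 and 0.893 at the stronger. Mir9-3hg, host of a microRNA of the nervous system, had 0.580 and 1.01. By their strongest region the snoRNA hosts lay above the median of all regions in both libraries, and Mir155hg and Mir9-3hg below it in both.

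Of the growth and stress list 4 of 6 eligible genes had a region. Lncpint, which is induced by p53, had the most regions of any lincRNA: 8 near its several start sites, with mean signals of 1.03 to 6.23. The strongest, CpG-rich and at -474 bp, had 6.56 in replicate 1 and 5.90 in replicate 2. Another, with 3.37 and 2.71, lay 11 bp from the TSS of 2210408F21Rik, a processed transcript. The Lncpint region with 1.55 and 1.48 lay 333 bp from a TSS of the same transcript gene. Trp53cor1 (lincRNA-p21), a p53 target, had 5.45 and 4.41 at the CpG-poor exonic region shown above, which lies 11936 bp from the TSS of Cdkn1a. Pvt1, the lincRNA downstream of Myc, had 3 regions, with 1.26 and 1.37 at its main TSS, 0.981 and 0.946 at the second and 0.648 and 0.557 at the third. The region at the main Pvt1 TSS also lay 69 bp from the TSS of Gm27913, a gene of another type. Bvht, which acts in cardiovascular lineage commitment in the mouse, had 4.11 and 3.38. The strongest region of each of the 4 genes lay above the median of all regions in both libraries. Lncpint, Pvt1 and Trp53cor1 had several regions to draw it from, and for Pvt1 only the region at the main TSS did so.

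Of the imprinted list 1 of 3 eligible genes had a region, and of the Hox and body plan list 0 of 3, numbers too small to set against the 16.5% of all eligible lincRNA genes. Meg3, a maternally expressed gene of the imprinted Dlk1 to Dio3 cluster, had 0.435 in replicate 1 and 0.672 in replicate 2 at its TSS, below the median of all regions. This region also lay 227 bp from the TSS of Gm27596, a gene of another type. H19, the imprinted RNA beside Igf2, had no peak within 1 kb of an eligible TSS in either library, nor had Hotair, transcribed from the Hoxc cluster, Mir124-2hg or Miat. Mirg, Mir124a-1hg, Pantr1 and Platr4 had 1 peak in replicate 2 alone, with signals of 0.415, 0.398, 0.619 and 0.822, and none in replicate 1. The Pantr1 peak lay 53 bp from a protein-coding TSS. Rmst, which acts in neuronal differentiation, had a peak of 0.273 in replicate 1 and another of 0.362 in replicate 2 that did not overlap. A missing peak means that none was listed at this depth, not that the promoter is closed in all cells.

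**Figure D4:**
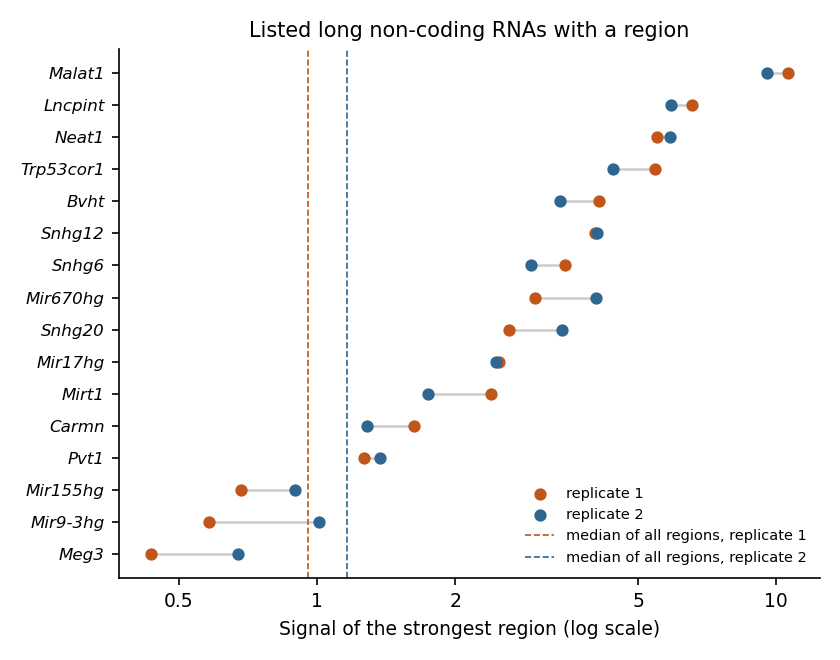
Signal of the strongest region (log scale) of each of the 16 listed lncRNAs with a region, in replicates 1 and 2; dashed lines are the medians of all 918 regions. Malat1 is highest, at 10.6 and 9.53, and Meg3, Mir9-3hg and Mir155hg lie below both medians.

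The strongest region, at Gm42418 on chromosome 17, had a signal of 37.3 in replicate 1 and 62.6 in replicate 2, while the next strongest averaged 12.4. It spans chr17:39846781-39846920 and is covered by a ribosomal RNA gene model on the opposite strand, CT010467.1 (39846353 to 39848201), beside the lincRNA models Gm26917 and AY036118. The part of ribosomal DNA copies in its signal was not tested, and the Gm42418 value is not read as that of a lincRNA promoter. It was the only region of the 5 above 10 that differed by more than 1.5-fold between the libraries after centring, at -0.60 on the log2 scale. Medians given here do not turn on it.

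Below it came regions of little-studied genes, with all 15 strongest regions CpG-rich, 13 of the 15 outside the lincRNA body and 13 upstream of the TSS. 1700096K18Rik had 13.7 in replicate 1 and 11.2 in replicate 2, 6720427I07Rik 10.7 and 11.0, and Gm10010 9.80 and 11.4. Gm15408 had 8.85 and 10.9, Tmem250-ps 9.17 and 9.72, and 9430037G07Rik 9.62 and 8.91. The libraries put these regions in different order, so their ranks are not fixed. D730045B01Rik had 9.02 and 8.55 with 10 and 9 footprints, but its midpoint lay 1 bp from the TSS of 1700028E10Rik, a processed transcript, and in an intron of a protein-coding gene. Gm20732 had 9.08 and 8.33 at -304 bp, Gm33195 8.22 and 8.88, and A230028O05Rik 7.34 and 9.07, the last 214205 bp from the nearest protein-coding TSS, that of Lpp. 1700020I14Rik had 6.40 and 8.22, Gm31812 7.84 and 6.77, and Gm36445 6.18 and 7.56.

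Wide regions and regions with many footprints were not always strong, although by quartile of signal footprints per region were fewer in weaker regions, as given above. The widest region, at Gm40513, spanned 900 bp with a signal of only 1.05 in replicate 1 and 0.831 in replicate 2, and held 10 and 7 footprints. BC043934 spanned 897 bp with 0.640 and 0.919, the second region of Pvt1 spanned 690 bp, 2810405F17Rik 680 bp with 2.95 and 2.72, and 2900072N19Rik 620 bp with 0.708 and 0.893. Besides Neat1, D730045B01Rik, Gm40513 and 2810405F17Rik, Gm34590 was among the 5 regions with most footprints, with 8 in each library at 4.52 and 3.42. The weakest 5, at Gm45092, AC166748.2, 1700110I01Rik, Gm11228 and Gm32647, had signals of 0.186 to 0.336 in either library and at most 1 footprint in each.

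Between the libraries, member regions varied as all shared peaks did. The raw signal was higher in replicate 1 in 341 regions and higher in replicate 2 in 577, with a median log2 ratio of replicate 1 over replicate 2 of -0.16, and all shared peaks had a median of -0.14. After centring on that value the members' median was -0.02 with an SD of 0.50, and the SD over all pairs was also 0.50. Past 1.5-fold after centring, 70 regions (7.63%) were higher in replicate 1, against 7.26% of all pairs, and 141 (15.4%) were higher in replicate 2, against 15.2% of all pairs. Both shares are near the background and say nothing particular of lincRNA promoters. The remaining 707 (77.0%) were within 1.5-fold, against 77.5% of all pairs. Across the 918 regions the log2 signals had a Pearson r of 0.899. Regions share a library and its depth and are not replicates, so this is a description.

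**Figure D5:**
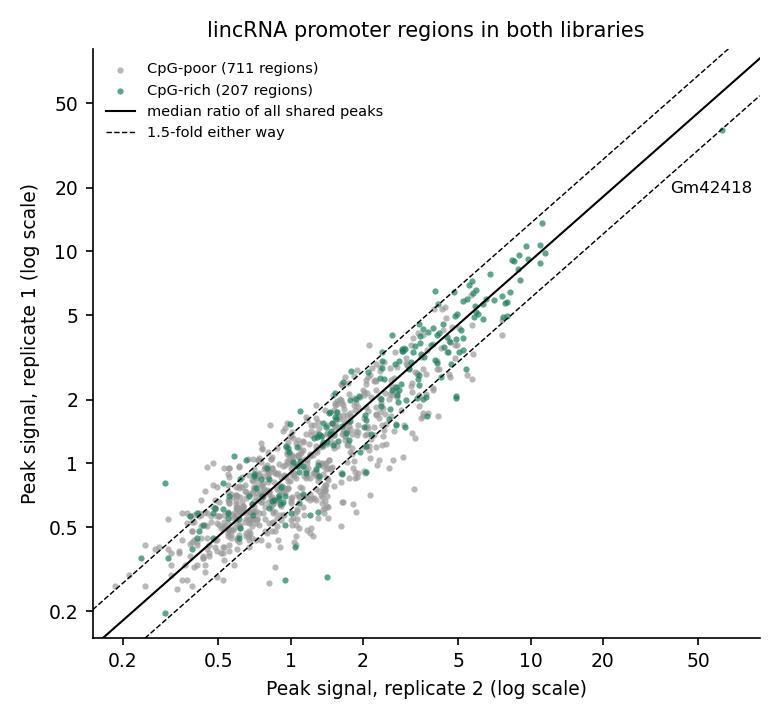
Signal of the 918 lincRNA promoter regions in replicate 1 (vertical) against replicate 2 (horizontal), both on log scales, with 207 CpG-rich and 711 CpG-poor regions. The solid line is the median ratio of all shared peaks and dashed lines are 1.5-fold either way: 707 regions lie between them, and Gm42418 stands apart at 37.3 and 62.6.

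The regions that differed most were weak in at least 1 library. Furthest to replicate 2 was Gm43522, with 0.290 in replicate 1 and 1.41 in replicate 2, followed by 4930597A21Rik with 0.759 and 3.27. Gm35722 had 0.281 and 0.946, Gm28865 0.503 and 1.62, and Gm34759 0.588 and 1.87. Their centred log2 ratios ran from -2.14 to -1.53. Furthest to replicate 1 was a second region of Gm20732, 446 bp downstream of its TSS, with 0.810 and 0.300. Gm45253 had 0.964 and 0.451, 4933400C23Rik 0.998 and 0.477, Gm42787 1.08 and 0.583, and Gm14618 1.52 and 0.822, with centred log2 ratios of 1.03 to 1.58. With 1 library on each side no difference could be tested.

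The regions nearest to protein-coding genes had the highest median signal and the farthest the lowest, although all lay beyond 5 kb. The 81 regions 5 to 10 kb from the nearest coding TSS had medians of 1.42 in replicate 1 and 1.61 in replicate 2, and 34.6% were CpG-rich. The 183 at 10 to 25 kb had 1.19 and 1.37 with 26.2% CpG-rich, the 214 at 25 to 50 kb 0.925 and 1.22 with 23.8%, and the 189 at 50 to 100 kb 0.955 and 1.10 with 24.3%. The 251 beyond 100 kb had 0.802 and 0.875, and 13.5% were CpG-rich. Signal and CpG content moved together here, and their separate parts were not tested. The median distance to the nearest protein-coding TSS was 45.7 kb. The regions had 653 nearest protein-coding genes, and 535 of these (81.9%) had a shared promoter peak, against 65.1% of all protein-coding genes. Among eligible lincRNA genes the share with a region was 20.0% at 5 to 10 kb, 19.7% at 10 to 25 kb, 22.5% at 25 to 50 kb, 17.4% at 50 to 100 kb and 11.7% beyond 100 kb.

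A few regions had a cell type marker as nearest protein-coding gene. For smooth muscle, Synm was nearest to 4833412C05Rik, with 3.14 in replicate 1 and 3.04 in replicate 2 at 43958 bp, and to Gm39027, with 0.810 and 0.521. For urothelium, Ehf, an epithelial ETS factor, was nearest to a pair of Gm13869 regions with 0.452 and 0.663 and with 0.716 and 0.751. Gata3, a urothelial transcription factor, was nearest to Gm13219 with 1.19 and 1.33, at a distance of 521282 bp, and Klf5 to Gm41230 with 0.947 and 0.795 at 222996 bp. Foxf1 and Gas1, from the fibroblast list, were nearest to Gm28324, with 0.955 and 0.839, and to Gm48397, with 0.580 and 0.548. Kdr, the endothelial VEGF receptor, was nearest to Gm28865, which was among the regions furthest to replicate 2, with 0.503 and 1.62. Apart from the region of 4833412C05Rik, the Gm13219 region and replicate 2 of Gm28865, these values lay at or below the medians of all regions. A shared neighbourhood says nothing of regulation between the genes.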

How the data were processed

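DNase-seq peaks, footprints and stretches of significant cut rate of 2 libraries of urinary bladder were used as the authors deposited them, on mm10 per the deposited file listing. The read aligner and the peak and footprint callers were not given in the sources used here. The deposited peak signal comes in whole steps, of 0.00853 in replicate 1 and 0.00884 in replicate 2, for 100% of peaks within a tolerance of 0.05. It is thus a count times 1 factor per library, whose meaning is not stated. The median region was worth 112 steps in replicate 1 and 131.5 in replicate 2. The total depth is unknown. The deposited footprints and cut-rate stretches carry a threshold or false discovery rate on the p-value scale, used only as deposited cut-offs.

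The longer peak list of each library was used on chromosomes 1 to 19, with TSSs and gene types from GENCODE M21 and sequence, repeats and CpG counts from GRCm38.p6, the assembly of mm10. CpG observed over expected was taken over the union of both peaks, with a threshold of 0.6. Values come from pairs with the largest mutual overlap and log2 ratios were centred on the median of all 68801 pairs. Repeats masked in the assembly made up 7.58% of region bases. Python 3.11.15, numpy 2.4.6 and pandas 2.3.3 were used, and the peak rule and the overlaps were checked on simulated peaks. Values per class are means and SD over n = 2 libraries, with no test.

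The rule for the members, the lncRNA lists and the cell type lists were chosen with earlier results of these data known. Named regions are the 15 strongest, all of listed genes, the 5 highest and 5 lowest ratios, the 5 widest, the 5 with most footprints, the 5 weakest, and those nearest a marker gene. Listed genes without a region, 4632415L05Rik and the genes beside Gm42418 were named after their values were seen. Some nearest genes are not reported here. Alternatives covered the TSS window (500 bp and 2 kb), the coding distance (2 and 10 kb), a reciprocal overlap of 50%, the shorter lists, the 40000 strongest peaks, the annotation classes and each library alone. Chromosomes X and Y were not used.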

Additional observations from a re-analysis of the deposited data

How the results depend on the processing

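No paired analysis was possible because the study holds 1 group of 2 libraries and no contrast between groups.

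The number of regions stayed within 1.5 times of 918 except with the shorter peak lists (601) and the 40000 strongest peaks of each library (447). With those lists the median signal of the regions was 1.51 and 1.92, the share of eligible lincRNA genes with a region 11.4% and 8.64%, and the share of regions with a footprint 93.3% and 96.8%, since stricter lists keep stronger peaks. A TSS window of 500 bp gave 12.8% of eligible genes and one of 2 kb 21.9%. A reciprocal overlap of 50% gave 89.9% of regions with a footprint. Taking each library alone gave 1082 to 1352 regions, a median signal of 0.813 to 0.861, 18.5% to 22.0% of eligible genes and 77.7% to 81.0% with a footprint. Split by CpG content, the ratio of the lincRNA median to the protein-coding one was 0.747 (CpG-rich) and 0.879 (CpG-poor), and to the distal one 1.77 and 1.14, with the same direction. The median log2 ratio between replicates ran from -0.21 to -0.15 over 10 alternatives, beside a main value of -0.16. Of 63 alternatives for motif shares, 38 stayed within the counting interval of the main share, and the rest moved mostly with the CpG class. The lowest signal of a region was worth 23 steps in replicate 1 and 21 in replicate 2, and how depth limits the list of weak peaks was not tested.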
